A study of Homo sapiens with 12 samples.

Results

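The genes described here are those of DNA replication and DNA repair that the authors' deposited table lists. They were chosen by symbol: protein-coding genes whose names start with FANC, BRCA, XRCC, ERCC or GINS, or with MCM, ORC, RFC, RPA, POLD, POLE, MSH or RAD followed by a digit. The rule used no measured value and found 26 of the 5759 listed genes, or 26 of 5270 that are protein-coding. RefSeq holds 89 protein-coding symbols that meet the rule, and the other 63 were not analysed here. A gene is listed only where its log2 fold change reached 1 in size in some comparison and its false discovery rate (FDR) was under 0.05 in some comparison, so the 26 are the replication and repair genes that moved somewhere, and a count among them is a description and not a share of the pathway.

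The study sequenced mRNA from MOLT4 cells, an established human T lymphoblast line labelled wild type, in 12 samples that form 4 groups of 3. The groups received vehicle (DMSO) over 6 h, 0.1 µM of compound 955 over 1 h or over 6 h, and 1 µM of SNS-032 over 6 h. SNS-032 inhibits kinases that drive transcription and the cell cycle, CDK9 included, and the series concerns piperlongumine conjugates made to degrade proteins. Each treated group was compared with the same DMSO group, so the 3 comparisons share their control, and the DMSO group was collected at 6 h only. The 1 h comparison therefore cannot tell treatment from time in culture. The labels do not say whether the replicates came from separate cultures, so the p-values may measure technical spread only.

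Before a cell divides, the origin recognition complex marks start sites on DNA, the MCM helicase is loaded there, and GINS joins it to form the active helicase. The clamp loader RFC then places the sliding clamp PCNA, which holds the replicative polymerases on the template. Repair pathways mend what goes wrong: mismatch repair corrects copying errors, excision repair removes bulky lesions, the Fanconi anaemia pathway handles crosslinks between strands, and recombination and end joining rejoin breaks. Many replication genes are known targets of E2F transcription factors, which act near promoters at the entry into S phase.

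RefSeq promoters (GRCh38.p14, 250 bases before to 50 bases after the start) were matched for 22 of the 26 genes. POLD3 and XRCC5 are among those with no entry. Of these promoters, 4 are printed: GINS3 as the gene with the lowest log2 fold change with 955 at 6 h, FANCA as the gene with the highest, MCM6 for the replicative helicase, and FANCF, added after its values were seen, as the gene that fell at 1 h. They lie at chr16:58392221-58392520 on the plus strand (GINS3), chr2:135876394-135876693 on the minus strand (MCM6), chr16:89816598-89816897 on the minus strand (FANCA) and chr11:22625774-22626073 on the minus strand (FANCF). Each reads 5′ to 3′ along the gene, and capitals mark the motif words searched on both strands: the E2F words TTTCCCGC, TTTGGCGC, TTTCGCGC and TTTGCCGC, the CCAAT box, the GC box GGGCGG, and TTTGAA, a cell cycle element.
GINS3: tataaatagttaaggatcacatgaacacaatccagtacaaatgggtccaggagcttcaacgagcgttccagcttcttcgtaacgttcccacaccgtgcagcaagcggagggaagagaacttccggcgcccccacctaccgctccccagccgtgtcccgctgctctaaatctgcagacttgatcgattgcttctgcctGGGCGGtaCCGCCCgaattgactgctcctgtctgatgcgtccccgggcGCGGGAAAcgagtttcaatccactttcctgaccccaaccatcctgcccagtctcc
MCM6: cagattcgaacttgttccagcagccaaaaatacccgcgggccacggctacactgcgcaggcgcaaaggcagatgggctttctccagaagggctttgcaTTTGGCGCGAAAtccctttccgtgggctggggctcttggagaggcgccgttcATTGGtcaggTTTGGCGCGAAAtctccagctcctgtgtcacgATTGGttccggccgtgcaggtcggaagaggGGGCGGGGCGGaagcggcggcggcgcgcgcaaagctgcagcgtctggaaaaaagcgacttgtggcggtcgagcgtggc
FANCA: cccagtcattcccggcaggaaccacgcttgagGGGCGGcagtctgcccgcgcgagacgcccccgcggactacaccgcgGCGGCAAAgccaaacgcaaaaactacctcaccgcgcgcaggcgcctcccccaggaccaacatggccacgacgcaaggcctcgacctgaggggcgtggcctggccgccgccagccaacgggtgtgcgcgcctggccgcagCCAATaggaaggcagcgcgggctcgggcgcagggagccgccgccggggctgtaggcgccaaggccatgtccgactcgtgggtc
FANCF: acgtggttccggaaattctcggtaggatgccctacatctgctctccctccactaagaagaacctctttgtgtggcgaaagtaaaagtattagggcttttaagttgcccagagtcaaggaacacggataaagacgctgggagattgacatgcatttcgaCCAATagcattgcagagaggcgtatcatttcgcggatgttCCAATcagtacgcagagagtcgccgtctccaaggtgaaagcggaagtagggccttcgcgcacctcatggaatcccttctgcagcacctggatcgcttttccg

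In MCM6, 2 copies of TTTGGCGC start at -152 and -90 from the start site, and each overlaps the reverse word GCGCGAAA. GINS3 holds 1 E2F word at -5 beside 2 GC boxes, and FANCA holds 1 at -172 with a CCAAT box at -33. FANCF holds 2 CCAAT boxes, at -92 and -52, and no E2F word in this window. An E2F word was found in 8 of the 22 promoters, or 36.36% (FANCA, FANCC, GINS2, GINS3, MCM6, MSH6, POLE2 and RFC3). The share was 5.5% of 4326 listed protein-coding promoters and 4.44% of all 15843. CCAAT was in 11 of the 22, against 37.89% of listed promoters and 36.36% of all. The GC box was in 77.27%, against 69.02% of listed and 58.5% of all. TTTGAA was in 13.64%, against 10.49% of listed and 12.14% of all. ERCC4, ORC5 and RAD51C held none of these words. In the authors' deposited table, the 8 genes with an E2F word had a median log2 fold change of -1.25 with 955 at 6 h, against -1.40 for the 14 without. Among the genes with a word, 6 of 8 fell, and among those without, 11 of 14 fell, where 60.08% of 238 listed genes with a word and 54.53% of 4088 without one were called lower. The promoters that hold the word thus belong to genes on both sides of the range, FANCA and GINS3 included.

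At 6 h most of the 26 genes were lower than in DMSO with either compound. A gene is called here, and said to have risen or fallen, where its FDR is under 0.05 and its log2 fold change at least 1 in size. By the authors' deposited table, 19 of 26 fell with 955 at 6 h and 1, FANCA, rose (below 0 under mitochondrial scaling), over listed genes of which 50.1% were called lower and 35.2% higher. With SNS-032, 22 fell and FANCA again rose, with the same exception, in the authors' deposited table, where 52.5% of listed genes were called lower and 37.8% higher. The median log2 fold change of the 26 in the authors' deposited table was -1.28 with 955 and -1.45 with SNS-032, beside -1.03 and -1.07 over all listed genes and -1.08 and -1.11 over the protein-coding ones. All 26 had an FDR under 0.05 with SNS-032, where 95.7% of listed genes did, and 23 with 955, where 93.5% did, so these counts are near the background. Both comparisons called 17 of the genes, 955 alone 3 and SNS-032 alone 6. The same split over all listed genes is not given here. A call with 1 compound alone is not a difference between compounds: set against each other (below), 0 of the 26 passed both criteria. In bulk RNA, a loss of cells and less RNA per cell cannot be told apart.

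At 1 h few of these genes had moved under the authors' scaling. By the authors' deposited table, FANCF alone of the 26 fell (1 of 26), where 7.71% of listed genes were called lower, and none rose. Under mitochondrial scaling, for which the share of all listed genes called is not given here, 7 were called lower: ERCC4, ERCC6L, FANCF, MCM9, MSH6, ORC1 and ORC5. At an FDR under 0.05 with no bound on size there were 5 (FANCA above DMSO, and ERCC4, FANCF, MSH6 and ORC5 below it), where 16.6% of listed genes passed. The median log2 fold change was -0.11 in the authors' deposited table, beside -0.05 over all listed genes.

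**Figure D1:**
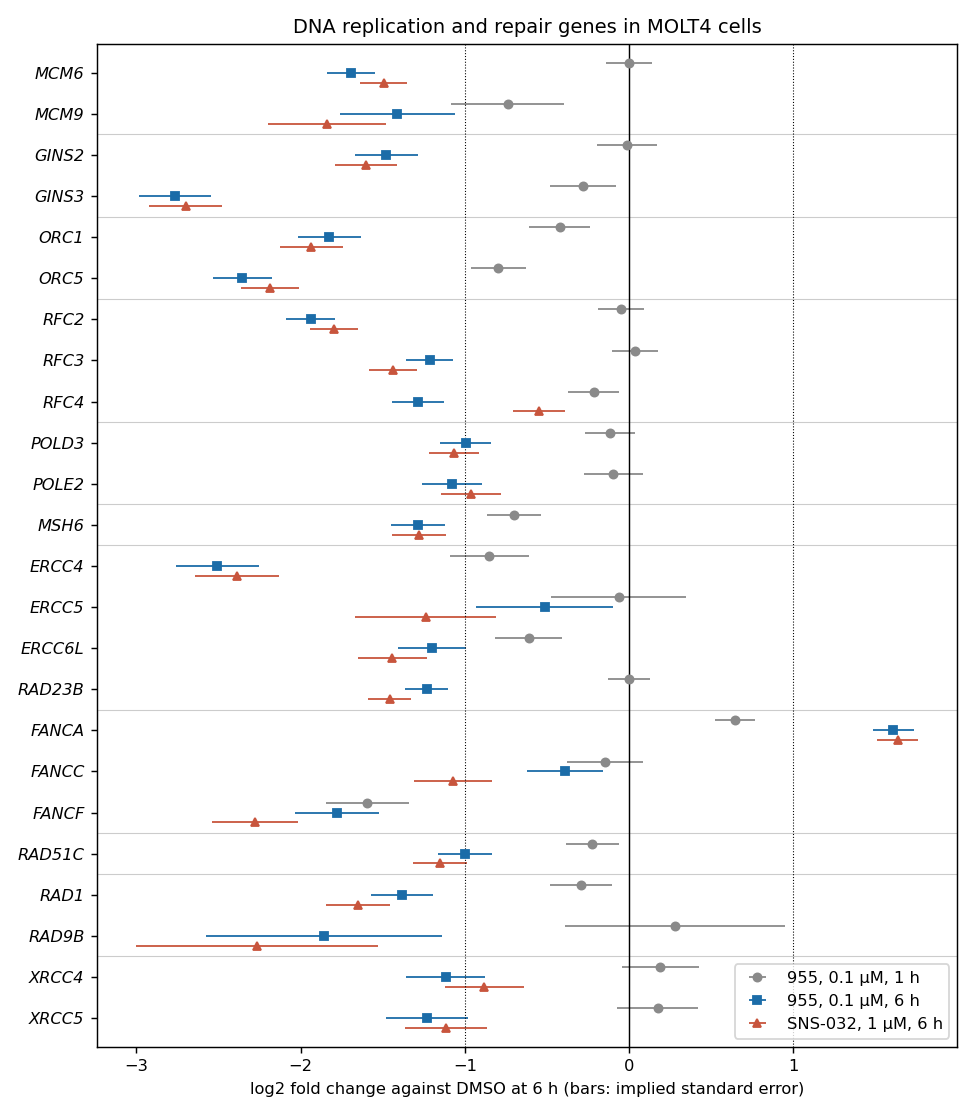
Log2 fold change of 24 of the 26 genes (rows, grouped by role) against DMSO at 6 h for 955 at 1 h (circles), 955 at 6 h (squares) and SNS-032 at 6 h (triangles), with implied standard errors as bars and dotted lines at -1 and 1. At 6 h, all but 1 of the 24 lie left of 0 with either compound and FANCA lies right of it, at 1.61 and 1.64; under mitochondrial scaling FANCA lies below 0.

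The plot of values by gene shows most 1 h points near 0, over a range from -1.59 (FANCF) to 0.65 (FANCA). For most genes the 6 h points of both compounds lie close together. They lie furthest apart for RFC4 (-1.29 with 955 and -0.55 with SNS-032) and ERCC5 (-0.51 and -1.24). Errors are implied standard errors, the absolute log2 fold change divided by the square root of the deposited F statistic. They follow the authors' model of spread and are not SDs of replicates. Values per sample and depth were not used here, so no sample can be called high or low.

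**Figure D2:**
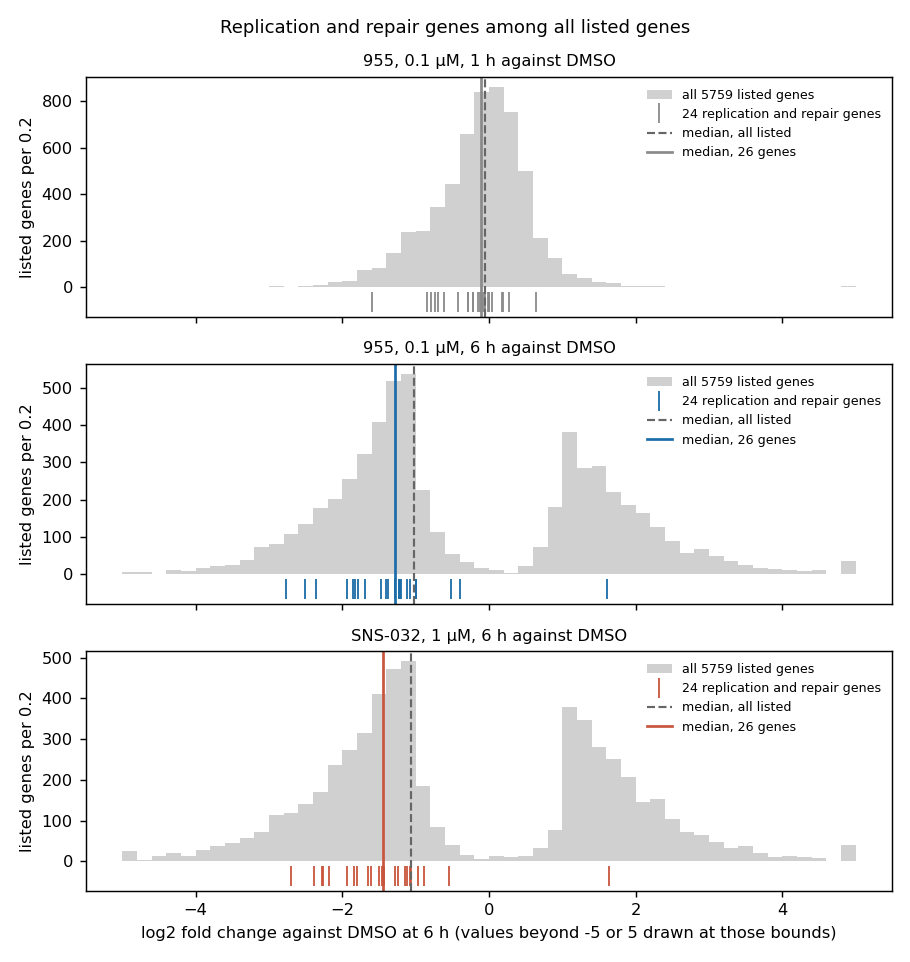
Histograms of the log2 fold change of all 5759 listed genes (grey, bins of 0.2) in the 3 comparisons, with 24 of the 26 replication and repair genes as ticks below and the medians of all listed and of the 26 as lines. At 6 h the listed genes form a low and a high group with few between, and all ticks but that of FANCA lie below 0 (FANCA too under mitochondrial scaling) (a gene is listed only if it passed 1 in size somewhere).

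The genes that mark and open origins fell with both compounds. ORC1, the largest subunit of the origin recognition complex, had log2 fold changes of -1.83 ± 0.19 (implied SE) with 955 at 6 h (FDR 3.76e-08) and of -1.93 ± 0.19 after SNS-032 (FDR 1.45e-08) in the authors' deposited table. ORC5, another subunit, was at -2.35 ± 0.18 (FDR 2e-10) after 955 and -2.19 ± 0.18 after SNS-032 (FDR 4.64e-10) in the authors' deposited table. At 1 h the authors' deposited table gave -0.80 for ORC5 (FDR 0.00491), short of the bound, and -0.42 for ORC1 (FDR 0.295). ORC5 is thus 1 of the 4 genes already below DMSO at 1 h at an FDR under 0.05. MCM6, a subunit of the replicative helicase ring, was at -1.69 ± 0.14 (FDR 1.57e-09) after 955 and -1.49 ± 0.14 after SNS-032 (FDR 9.13e-09) in the authors' deposited table. For MCM9, a relative of that ring that works in recombination, the authors' deposited table gave -1.41 ± 0.35 (FDR 0.00514) after 955 and -1.84 ± 0.36 after SNS-032 (FDR 0.00065). MCM9 had a wider error than MCM6, and its 1 h value of -0.74 in the authors' deposited table had an FDR of 0.394.

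GINS3 had the most negative log2 fold change of the 26 with each compound. This subunit of the GINS complex was at -2.76 ± 0.22 (FDR 5.16e-10) after 955 and -2.70 ± 0.22 after SNS-032 (FDR 6.02e-10) in the authors' deposited table, or 14.7% and 15.4% of the DMSO level. Its partner GINS2 was at -1.48 ± 0.19 (FDR 8.62e-07) after 955 and -1.60 ± 0.19 after SNS-032 (FDR 2.5e-07) in the authors' deposited table. At 1 h neither GINS gene had an FDR under 0.05, with -0.28 for GINS3 and -0.01 for GINS2 in the authors' deposited table. The fall of GINS3 was therefore seen at 6 h and not called at 1 h.

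The clamp loader gave the only member that stood lower with 955 than with SNS-032 at an adjusted p under 0.05, a call lost under mitochondrial scaling. RFC2, a small subunit of the loader, was at -1.94 ± 0.15 (FDR 2.25e-10) after 955 and -1.79 ± 0.15 after SNS-032 (FDR 5.87e-10) in the authors' deposited table. RFC3 was at -1.21 ± 0.14 (FDR 2.48e-07) after 955 and -1.44 ± 0.14 after SNS-032 (FDR 1.75e-08) in the authors' deposited table. RFC4 fell with 955, at -1.29 ± 0.16 (FDR 4.88e-07), and was at -0.55 ± 0.16 with SNS-032 (FDR 0.00796) in the authors' deposited table, which is under the bound. So 3 of 3 loader genes fell with 955 and 2 of 3 with SNS-032, where 50.1% and 52.5% of listed genes were called lower. At 1 h the authors' deposited table placed the loader genes between -0.22 (RFC4) and 0.04 (RFC3).

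The replicative polymerase genes sat at the threshold. POLD3, an accessory subunit of polymerase delta, was at -0.994 ± 0.15 with 955 (FDR 1.32e-05), just outside the bound, and -1.07 ± 0.15 with SNS-032 (FDR 4.8e-06), just inside it, in the authors' deposited table. POLE2, a subunit of polymerase epsilon, was the other way round, at -1.08 ± 0.18 (FDR 4.26e-05) after 955 and -0.96 ± 0.18 after SNS-032 (FDR 0.000154) in the authors' deposited table. Each gene's values with the compounds lay closer together than 1 standard error, so the opposite calls rest on the bound. At 1 h the authors' deposited table gave -0.12 for POLD3 and -0.10 for POLE2.

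Mismatch repair begins with a complex that binds mispaired bases, and MSH6 encodes a subunit of it. MSH6 fell with both compounds, at -1.29 ± 0.17 (FDR 1.09e-06) and -1.28 ± 0.17 (FDR 1.08e-06) in the authors' deposited table. At 1 h it was at -0.70 in the authors' deposited table (FDR 0.0118), short of the bound. It is thus another of the 4 genes below DMSO by then at an FDR under 0.05.

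Among the excision repair genes, ERCC4, the catalytic subunit of the nuclease that cuts 5′ of a lesion, had the most negative values. It was at -2.51 ± 0.25 (FDR 2.3e-08) after 955 and -2.39 ± 0.25 after SNS-032 (FDR 4.12e-08) in the authors' deposited table, after -0.85 at 1 h (FDR 0.0399). ERCC5, the nuclease that cuts on the other side, was at -0.51 ± 0.42 (FDR 0.479) after 955 and -1.24 ± 0.43 after SNS-032 (FDR 0.0298) in the authors' deposited table. Only the second is a call, and the errors are wide. RAD23B, which partners the lesion sensor XPC, was at -1.23 ± 0.13 (FDR 4.57e-08) after 955 and -1.46 ± 0.13 after SNS-032 (FDR 2.97e-09) in the authors' deposited table. ERCC6L shares the name but encodes a DNA translocase of mitosis. It was at -1.20 ± 0.21 (FDR 5.42e-05) after 955 and -1.44 ± 0.21 after SNS-032 (FDR 4.89e-06) in the authors' deposited table, after -0.61 at 1 h (FDR 0.106). With ERCC6L counted by its name alone, 3 of 4 fell with 955 and 4 of 4 with SNS-032, where 50.1% and 52.5% of listed genes were called lower. ERCC6L is among those that fell with each compound.

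The Fanconi anaemia core complex, which attaches ubiquitin to its targets at stalled forks, was split. FANCA rose, with log2 fold changes of 0.65 ± 0.12 at 1 h (FDR 0.00186, short of the bound), 1.61 ± 0.12 with 955 at 6 h (FDR 3.11e-10) and 1.64 ± 0.12 after SNS-032 (FDR 1.8e-10) in the authors' deposited table, but was at -0.03, -0.46 and -0.71 when scaled to mitochondrial mRNAs. Those are 156.5%, 304.5% and 310.8% of the DMSO level under the authors' scaling. FANCF fell at every time, at -1.59 ± 0.25 at 1 h (FDR 0.000338), -1.78 ± 0.26 with 955 at 6 h (FDR 4.53e-06) and -2.27 ± 0.26 after SNS-032 (FDR 1.51e-07) in the authors' deposited table. That is 33.1%, 29.1% and 20.7% of the DMSO level under the authors' scaling. Under mitochondrial scaling FANCF was at -2.27, -3.85 and -4.62. FANCC was at -0.39 ± 0.23 with 955 (FDR 0.276) and fell with SNS-032, at -1.07 ± 0.24 (FDR 0.00085), in the authors' deposited table. With 955 at 6 h, then, 1 of these 3 rose, 1 fell and 1 was not called, where 35.2% of listed genes were called higher and 50.1% lower.

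RAD51C, RAD1 and RAD9B act in recombination and in the DNA damage checkpoint. Of these 3, 1 fell with 955 and 3 with SNS-032, where 50.1% and 52.5% of listed genes were called lower. These counts do not show a difference between compounds. In the approximate t contrast described below the differences were 0.15 for RAD51C (adjusted p = 0.74), 0.27 for RAD1 (adjusted p = 0.56) and 0.41 for RAD9B (adjusted p = 0.86). RAD51C, a factor of homologous recombination, was at -0.999 ± 0.16 with 955 (FDR 2.64e-05), just outside the bound, and -1.15 ± 0.16 with SNS-032 (FDR 3.81e-06) in the authors' deposited table. RAD1, a subunit of the checkpoint clamp that signals damage, was at -1.38 ± 0.19 (FDR 2.6e-06) after 955 and -1.65 ± 0.19 after SNS-032 (FDR 1.92e-07) in the authors' deposited table. RAD9B, a relative of another clamp subunit, was at -1.86 ± 0.72 (FDR 0.0585) after 955 and -2.26 ± 0.74 after SNS-032 (FDR 0.0216) in the authors' deposited table. Its average level of 0.40 log2 CPM (scaled to library total, not corrected for gene length, over all samples) goes with the widest errors of the 26. At 1 h these 3 genes lay between -0.29 (RAD1) and 0.28 (RAD9B) in the authors' deposited table.

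End joining genes gave 1 call more with 955 than with SNS-032, and that call, of XRCC4, rests on the bound. The difference between compounds for XRCC4 was -0.24 ± 0.24 in the approximate t contrast described below (adjusted p = 0.721). Under mitochondrial scaling that difference was 0.038. XRCC4, the scaffold of the ligase that seals ends, was at -1.12 ± 0.24 (FDR 0.000692) after 955 and -0.88 ± 0.24 after SNS-032 (FDR 0.00574) in the authors' deposited table. XRCC5, the larger Ku subunit that binds broken ends, was at -1.23 ± 0.25 (FDR 0.00301) after 955 and -1.11 ± 0.25 after SNS-032 (FDR 0.00537) in the authors' deposited table. At 1 h both were slightly above 0, at 0.19 and 0.17 in the authors' deposited table, with neither FDR under 0.05.

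The compounds were then set against each other at 6 h, at doses that differ (0.1 µM for 955 and 1 µM for SNS-032). This contrast was approximated from the deposited fold changes and F statistics. Of the 26 genes 0 passed both criteria, where 1.11% of listed genes did, and 2 had an adjusted p under 0.05 (approximate t contrast, Benjamini-Hochberg over all listed genes), where 2.73% did. Under the authors' scaling RFC4, one of these, was lower with 955, by -0.74 ± 0.16 (95% interval -1.06 to -0.41, adjusted p = 0.0124), but under mitochondrial scaling its difference was -0.46 with an adjusted p of 0.0584. With that scaling FANCC (0.95, adjusted p = 0.0108), RAD23B (0.50, adjusted p = 0.0161) and RFC3 (0.50, adjusted p = 0.0279) were higher with 955 at an adjusted p under 0.05, short of the bound. Under the authors' scaling the adjusted p of the other 24 missed the threshold, which does not show that the compounds act alike: the interval for FANCA ran from -0.29 to 0.23, but that for RAD9B from -1.10 to 1.91. FANCC, at 0.68 (interval 0.19 to 1.17), had an adjusted p of 0.143. The median difference was 0.09.

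**Figure D3:**
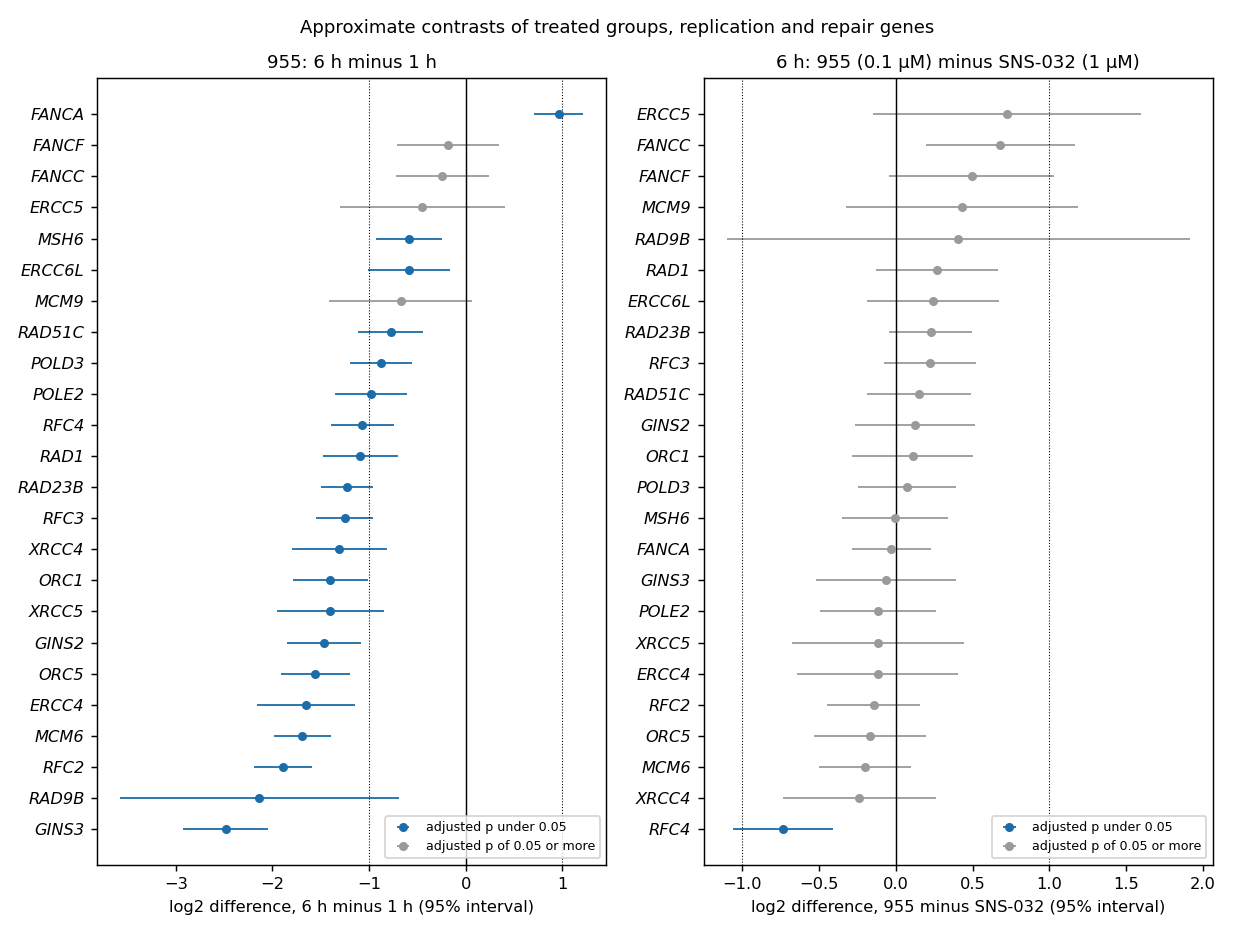
Approximate log2 differences of 24 of the 26 genes with 95% intervals, for 955 at 6 h minus 1 h (left) and for 955 minus SNS-032 at 6 h (right), coloured by adjusted p under 0.05. On the left 20 of the 24 are coloured, 19 below 0 and FANCA above it at 0.96 (-0.44 under mitochondrial scaling); on the right RFC4 is coloured.

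Most of these genes were lower at 6 h of 955 than at 1 h. With no DMSO group at 1 h, this contrast cannot tell longer treatment from time in culture. By the approximate contrast 15 of 26 were lower at 6 h past both criteria, where 35.6% of listed genes were, and 22 had an adjusted p under 0.05, where 84.7% of listed genes did, so that count is at the background. Under mitochondrial scaling the 15 became 25, with no share of all listed genes given beside that count. GINS3 moved most, by -2.48 (95% interval -2.92 to -2.05), followed by RAD9B at -2.13 with an interval of -3.57 to -0.70. FANCF differed by -0.19 (interval -0.71 to 0.34, adjusted p = 0.491), FANCC by -0.24 (adjusted p = 0.323), ERCC5 by -0.45 (adjusted p = 0.306) and MCM9 by -0.67 (adjusted p = 0.0832). These 4 missed the threshold under the authors' scaling, and FANCF is the one that had fallen by 1 h. Under mitochondrial scaling all 4 were lower at 6 h past both criteria, with FANCF at -1.58, FANCC at -1.64, ERCC5 at -1.85 and MCM9 at -2.07. FANCA went the other way, by 0.96 (interval 0.71 to 1.22), but by -0.44 under mitochondrial scaling.

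Values relative to other RNA depend on the scaling. In the authors' deposited table, all 13 mitochondrially encoded mRNAs, which another polymerase transcribes, lay above DMSO, with medians of 0.67 at 1 h, 2.07 for 955 at 6 h and 2.35 for SNS-032. Shifting each comparison so that these medians are 0 lowers every gene by those amounts. The median of the 26 then became -0.78, -3.35 and -3.80. FANCA became -0.03, -0.46 and -0.71, and 25 genes were called lower with each compound at 6 h, none higher. The share of all listed genes called under this scaling is not given here. Since every listed gene is lowered alike, these counts are not read against a background. Which scale is closer to RNA per cell was not tested.

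**Figure D4:**
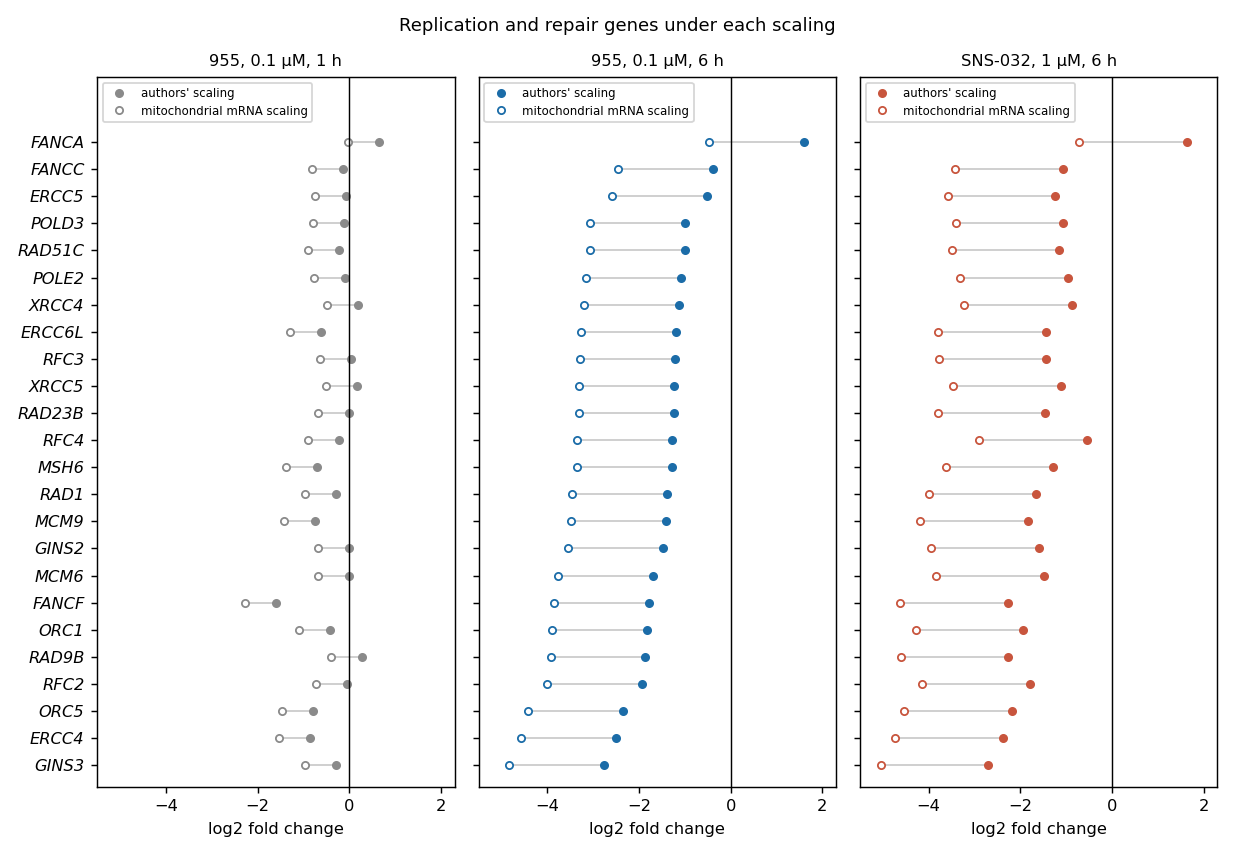
Log2 fold changes of 24 of the 26 genes under the authors' scaling (filled) and after the median of 13 mitochondrial mRNAs is set to 0 (open), for the 3 comparisons. Open points lie left of filled ones by 0.67, 2.07 and 2.35, and FANCA crosses 0 in each.

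The other genes of these pathways, from a list of 133 names that the symbol rule does not take, had 44 members in the table. With 955 at 6 h, 34 fell and 8 rose by the authors' deposited table, with a median of -1.58. Of all listed genes, 50.1% were called lower and 35.2% higher there. With SNS-032 34 fell and 8 rose by the authors' deposited table, with a median of -1.62, where 52.5% of listed genes were called lower and 37.8% higher. At 1 h EXO1, a nuclease of mismatch repair and resection, fell at -1.06 (FDR 0.0004), and PALB2, which bridges BRCA1 and BRCA2, at -1.12 (FDR 0.00754), in the authors' deposited table. They were the only 2 of the 44 called at 1 h, where 7.71% of listed genes were called lower. PCNA, the clamp that RFC loads, was at -3.14 with 955 (FDR 2.02e-13) and -4.21 after SNS-032 (FDR 2.98e-15) in the authors' deposited table. Its approximate difference of 1.07 ± 0.15 (adjusted p = 0.000358) was the only one of the 44 past both criteria, where 1.11% of listed genes passed. The next lowest with 955 in the authors' deposited table were NHEJ1, an end joining factor, at -3.08 and UBE2T, the ubiquitin-conjugating enzyme of the Fanconi pathway, at -3.06. With SNS-032 they were H2AX, the damage-marking histone, at -3.53 and FEN1, the flap endonuclease of the lagging strand, at -3.09 in the authors' deposited table. The highest were NEIL1, a base excision glycosylase, at 2.69 with 955 and 2.81 with SNS-032, DDB2, a sensor of ultraviolet lesions, at 1.75 and 1.89, and CHTF18, of an alternative clamp loader, at 1.49 and 1.74, in the authors' deposited table. Under mitochondrial scaling 0 of the 44 were called higher with either compound. That count is of calls past both criteria and not of signs. NEIL1 stayed above 0 there, since the shifts of 2.07 with 955 and 2.35 with SNS-032 are smaller than its values.

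The genes differ in structure. In GENCODE 29 (GRCh38) the 26 span a median of 46963 bp with 11.5 exons, beside 25621 bp and 8 exons for listed protein-coding genes. FANCF, at chr11:22622890-22625841 on the minus strand, is the only one with a single exon and the shortest, at 2952 bp. FANCA, at chr16:89737549-89816657 on the minus strand, has the most exons, 43. Of 151 listed protein-coding genes with 1 exon, 27.2% were called lower at 1 h with a median of -0.70 in the authors' deposited table, against 7.71% of 5108 with more exons and a median of -0.06. Across the 26 genes, Spearman's rho between span and log2 fold change was 0.23 at 1 h, then 0.50 for 955 at 6 h and 0.38 for SNS-032. Across 5262 listed protein-coding genes it was 0.05, 0.10 and 0.14. Among the 26, a longer GENCODE outer span thus went with a higher log2 fold change. For exon number rho was 0.29, 0.32 and 0.31 across the 26, and 0.33, 0.26 and 0.325 across 5259 listed protein-coding genes. Spans are outer limits in GENCODE: that of GINS3 begins at 58295080, well before its printed promoter. Those of ERCC5, FANCC and MSH6 also begin well before their RefSeq promoters. For such genes the span overstates the length from that start, and the correlations were not run with other limits. These are descriptions across genes that share libraries.

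Overlapping genes may bear on some values, and the use of strand in counting is not given in the sources used here. Of the 26 genes, 11 are overlapped by a protein-coding gene on the other strand and 18 by some gene there. FANCA overlaps ZNF276 and FANCF overlaps GAS2, neither of which was analysed here. ERCC5 overlaps BIVM on the same strand, and the authors' deposited table gave BIVM 1.14 with 955 and 0.61 with SNS-032. RAD1 overlaps BRIX1, at -3.96 and -5.34 in the authors' deposited table, and MCM9 overlaps ASF1A, at -2.66 and -2.92. The part of shared reads in these values was not tested.

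The cell type label could not be checked with these values, since a gene is listed for having moved and not for being expressed. Of 20 T lymphoblast markers the table lists 7 (CD2, CD3G, CD4, CD7, DNTT, RAG2 and ZAP70), with average levels of 3.74 to 10.14 log2 CPM. Of 12 markers of other blood cells it lists 2, among them CD79A, at 3.94. Unlisted markers were not analysed here.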

How the data were processed

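RNA was extracted from 12 MOLT4 samples and mRNA libraries were made with a BGI kit, per the labels' protocols. The submitters' processing notes name hg38 and DESeq2 without a role, and the aligner, counter and filters are not given in the sources used here. The deposited table holds, per the file headers, a log fold change (read as log2, since the smallest of the genes' largest absolute values is 1.0006), an average log2 CPM, an F statistic (a score), a p-value and an FDR for each of 3 comparisons by the authors. Columns of per-sample values left unused number 0. Depth is unknown and no interval that needs it is given.

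Gene IDs were matched to RefSeq (GRCh38.p14), where 5727 of 5759 matched. The authors' deposited FDR (under 0.05, absolute log2 fold change at least 1) made the calls. Contrasts of treated groups used the difference of the deposited log2 values, the quadratic mean of the gene's implied errors in the comparisons set against each other, and a t distribution with denominator degrees of freedom solved from F and p (10.2 to 23.3 for the 26 genes), with Benjamini-Hochberg adjustment over 5759 genes. The method was also run on simulated normal values with equal spread in every group. That setting makes the approximate error equal to the direct one, so the run cannot show how well the approximation holds here. Python 3.11.15, pandas 2.3.3, numpy 2.4.6, scipy 1.17.1 and matplotlib 3.10.9 were used. The members, lists and tests were chosen with earlier results of these data known. The values of 2 members and of 1 marker are not reported here by name, though they stay in all counts and medians. Every other member was named, with full statistics for those with extreme values in their role group, and other genes were named where past the threshold at 1 h or between compounds, or among the 3 largest falls and rises at 6 h. Alternatives were no fold bound, an FDR under 0.01, a level of at least 2 log2 CPM, members without ERCC6L, mitochondrial scaling, and other standard errors for the contrasts.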

Additional observations from a re-analysis of the deposited data

Results flagged for a closer look

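RFC4 differed between the compounds at 6 h in the approximate contrast, at unequal doses. Its difference, 955 minus SNS-032, was -0.74 on the log2 scale, and -0.46 with an adjusted p of 0.0584 under mitochondrial scaling. Between 1 h and 6 h of 955, 22 of the 26 genes differed at an adjusted p under 0.05 in the same kind of contrast, where 84.7% of all listed genes did. Of the 22, 21 were lower at 6 h and FANCA was higher under the authors' scaling. Longer treatment and time in culture cannot be told apart there.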

How the results depend on the processing

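No paired analysis was possible because the deposited table gives comparisons and no values per sample; for the same reason leaving out each replicate was not run. Without the fold bound, the calls went from 1 to 5 at 1 h and from 0 to 2 between the compounds. Under mitochondrial scaling, calls went from 1 to 7 at 1 h, from 15 to 25 between 6 h and 1 h of 955, and from 2 to 14 for the other replication and repair genes at 1 h, and the medians of the 26 became -0.78, -3.35 and -3.80. That scaling turned the sign at 1 h for FANCA (-0.028), XRCC4 (-0.48), RFC3 (-0.64), XRCC5 (-0.50) and RAD9B (-0.40), and for FANCA with 955 at 6 h (-0.46), with SNS-032 (-0.71) and between times (-0.44). For 955 minus SNS-032 it turned FANCA (0.25), POLE2 (0.16), XRCC4 (0.038), XRCC5 (0.16), MSH6 (0.27), MCM6 (0.076), RFC2 (0.13), ORC5 (0.11), ERCC4 (0.16) and GINS3 (0.21). These follow from the shift itself. Calls against DMSO at 6 h stayed between 19 and 25 of the genes counted with 955 and between 21 and 26 with SNS-032 over the alternatives run. Where the contrast's error took no account of the shared DMSO group, RAD9B lost its call between 6 h and 1 h. The selected listing and the unknown depth limit all of these counts. Those under mitochondrial scaling have no share of all listed genes beside them.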
